A study of Mus musculus with 6 samples.

Results

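The interferon-inducible GTPases of mouse liver fall into the immunity-related GTPases (IRG) and the guanylate-binding proteins (GBP), and 10 of their genes, Irgm1, Irgm2, Igtp, Iigp1, Ifi47, Tgtp1, Gbp2, Gbp3, Gbp6 and Gbp7, are described here. They were taken by symbol from a table of 17441 genes, where all 10 were found, and all 10 were among the 13160 genes left by a filter on low counts. The 10 were chosen with their levels in knockout and control livers known, so those differences are given as a description and carry no p-value. Total RNA was sequenced from 6 mouse livers in 2 groups of 3. The first group carried an inducible whole-body knockout of Nek7 (iKO), a protein kinase of the NIMA family that is also a partner of the inflammasome sensor NLRP3. The second group was wild type (WT). Tamoxifen had been injected 10 days before harvest in both groups, so the WT livers carry the drug as well. The series title places the study in acetaminophen liver injury, but no label names acetaminophen as a treatment of these livers. Age, sex, the driver of the inducible deletion and the deleted exons are not given in the labels, and the labels number the livers without naming animals, so p-values measure only the spread between these samples.

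IRG and GBP proteins are large GTPases made in many cell types after interferon gamma reaches its receptor. The receptor acts through the kinases JAK1 and JAK2, and the transcription factor IRF1 is among those that switch on their genes. The effector IRG proteins and the GBP proteins collect on the vacuoles of intracellular microbes such as Toxoplasma and help to break them open, while the IRGM proteins sit on the membranes of the cell itself and keep the effectors inactive there. In liver, hepatocytes, macrophages and endothelial cells can all respond to interferon gamma.

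The division between regulators and effectors is visible in the loop that binds the phosphates of GTP, and its coding sequence is printed for 9 of the members. The capitals mark the codon that follows the last glycine codon of the loop, an ATG in the IRGM genes and a lysine codon (AAG or AAA) in the effectors. Each line runs 5′ to 3′ on the coding strand and was read from the GENCODE M21 transcripts of the GRCm38 build, whose coordinates are given; the authors mapped reads to another build, mm9.
Irgm1, chr11:48866761-48866784, minus strand: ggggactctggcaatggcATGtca
Irgm2, chr11:58219695-58219718, plus strand: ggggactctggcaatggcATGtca
Igtp, chr11:58206275-58206298, plus strand: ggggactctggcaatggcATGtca
Ifi47, chr11:49095648-49095671, plus strand: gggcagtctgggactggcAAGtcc
Tgtp1, chr11:48987667-48987690, minus strand: ggggaaacaggcgcagggAAGtcc
Gbp2, chr3:142623826-142623849, plus strand: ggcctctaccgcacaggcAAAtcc
Gbp3, chr3:142561878-142561901, plus strand: ggtttatatcgtacagggAAGtcc
Gbp6, chr5:105290871-105290894, minus strand: ggattgtaccgtacagggAAGtcc
Gbp7, chr3:142534655-142534678, plus strand: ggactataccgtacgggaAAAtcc
The 3 IRGM loops were identical over all 24 bases. Igtp and Irgm2 overlap on the plus strand of chromosome 11, at positions 58199556 to 58207591 for Igtp and 58199618 to 58222782 for Irgm2.

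The promoters of several members share a compact arrangement of interferon elements. RefSeq promoter windows (GRCm38.p6, 250 bases before to 50 after a start) were matched by symbol for 8 of the 10 members, with 9 windows because Gbp3 had 2. They were searched on both strands for the letters of the gamma-activated site (GAS, TTCNNNGAA) and of the interferon-stimulated response element (ISRE, GAAA repeated on one strand with 2 bases between them), which IRF proteins bind. A GAS was found in 4 of the 9 windows, an ISRE in 7 and both in 4 (Gbp7, Tgtp1, Igtp and Irgm2), against 8.3%, 3.44% and 0.454% of all 32851 windows. The Ifi47 window and the second Gbp3 window held neither. In Tgtp1, Igtp and Irgm2 the 2 elements stood side by side on the same strand, and these blocks are printed with both elements in capitals.
Tgtp1, chr11:48992314-48992334, minus strand: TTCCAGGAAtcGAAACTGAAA
Igtp, chr11:58199511-58199531, plus strand: TTCTAGGAActGAAACTGAAA
Irgm2, chr11:58214902-58214922, plus strand: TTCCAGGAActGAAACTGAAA
Counted from 1 at the 5′ end, the Igtp block differs from that of Irgm2 by C4T, and the Tgtp1 block differs from that of Irgm2 at 2 positions between the elements. The blocks begin 88 (Tgtp1), 45 (Igtp) and 75 (Irgm2) bases before the start. The same spacing, chosen after these matches were seen, occurred in 5 of 32851 windows (0.0152%), and a member of the wider family, Tgtp2, was another of them. For the other arrangements, a 130-base stretch is printed for Irgm1, Gbp2 and Gbp7, with every match in capitals.
Irgm1, chr11:48871421-48871550, minus strand: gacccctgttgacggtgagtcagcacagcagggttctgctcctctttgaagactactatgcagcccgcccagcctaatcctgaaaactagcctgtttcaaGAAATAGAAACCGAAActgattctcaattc
Gbp2, chr3:142620533-142620662, plus strand: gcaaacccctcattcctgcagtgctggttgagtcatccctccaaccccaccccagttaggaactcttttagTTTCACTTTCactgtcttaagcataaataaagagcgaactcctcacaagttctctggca
Gbp7, chr3:142530206-142530335, plus strand: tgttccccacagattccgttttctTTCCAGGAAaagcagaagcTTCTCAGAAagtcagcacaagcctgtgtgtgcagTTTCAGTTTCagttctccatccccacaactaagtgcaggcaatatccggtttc
Irgm1 held 2 overlapping ISRE matches, Gbp2 a single ISRE read on the opposite strand, and Gbp7 2 GAS and 1 ISRE. A match describes letters in the window and says nothing of binding in these livers.

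**Figure D1:**
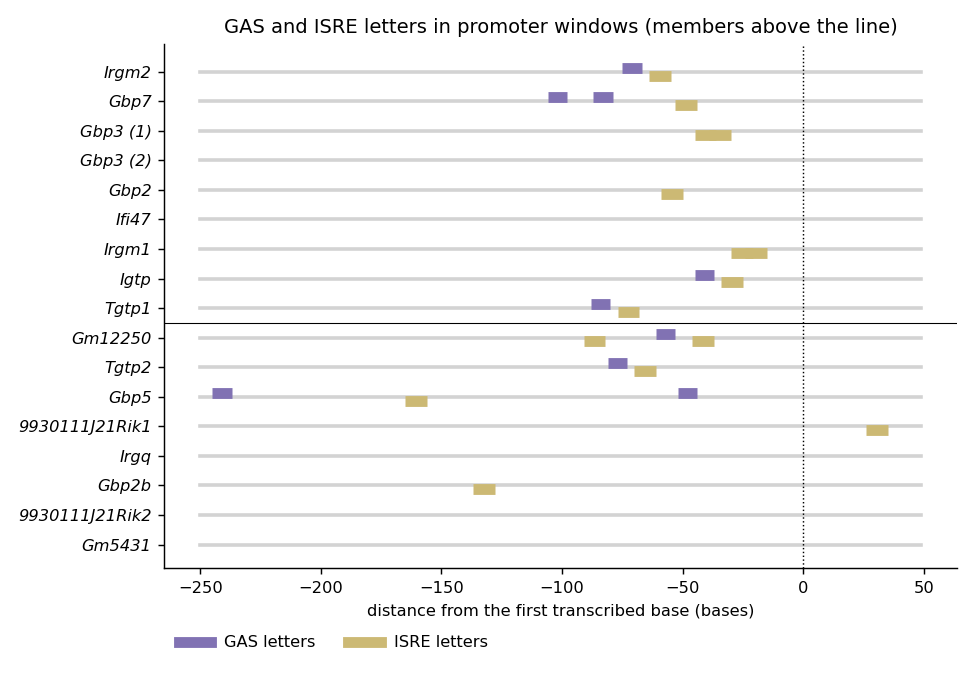
Positions of GAS and ISRE matches in the RefSeq promoter windows of 8 members (above the line) and 8 other family genes (below it), as distance in bases from the start (x axis), with 1 row per window. GAS and ISRE lie next to each other in Tgtp1, Igtp and Irgm2, and the Ifi47 row has no match.

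The libraries held between 18139500 and 19912000 expected counts, and levels below are TMM-scaled counts relative to library size (CPM), except where the length-scaled TPM is named. Nek7 itself was at 50.2, 32.8 and 31.0 CPM in iKO libraries 1, 2 and 3 and at 55.5, 40.5 and 36.3 CPM in WT libraries 1, 2 and 3. The difference was -0.22 on the log2 scale (SE 0.23, adjusted p = 0.541). Gene-level counts of the targeted gene therefore did not set the groups apart, and iKO and WT are used throughout as the names of the labels. Albumin stood between 66386 and 83264 CPM in iKO livers and between 76017 and 91157 CPM in WT livers. The Y-linked genes Ddx3y and Kdm5d had 432 to 670 and 141 to 221 counts in the iKO libraries, 817 and 296 counts in WT 1, and 0 counts in WT 2 and WT 3, where a count of 0 allows up to 3 counts. WT 1 was thus the only WT library with reads of Ddx3y and Kdm5d, which all iKO libraries had. Other Y-linked genes were not all at 0 in WT 2 and WT 3. Eif2s3y had 5.99 and 4 counts there, beside 212 to 615 in iKO libraries. Uty had 401 and 235 counts there, beside 264 to 490 in iKO libraries. Below, Y-linked reads means reads of Ddx3y and Kdm5d, and values from a fit with a term for them are given beside the results. On the WT side that fit rests on WT 1. Across all genes, 962 were higher and 1062 lower in iKO than in WT livers at an adjusted p under 0.05 (edgeR). These 2024 became 491 without WT 2, 908 without WT 3, 946 without iKO 3 and 184 with the Y-linked term. By comparison, limma on log2(FPKM + 1) gave 421 higher and 931 lower and moved the median of all genes to -0.12, and limma on log2(FPKM + 0.1) gave 427 higher and 926 lower with a median of -0.20.

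Every member had a lower mean level in iKO livers than in WT livers. The median log2 fold change of the 10 was -0.94, beside -0.02 over all genes tested, and 51.7% of all genes tested lay below 0. By the call used across the table, adjusted p under 0.05, 5 of 10 members were lower and 0 were higher, beside 8.07% of all genes called lower and 7.31% called higher. In 6 of 10 members each iKO library lay below each WT library, beside 19.2% of all genes. The members were chosen on this contrast, so nothing is read from these shares. In bulk liver RNA, fewer cells of a type and less RNA per cell cannot be told apart.

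**Figure D2:**
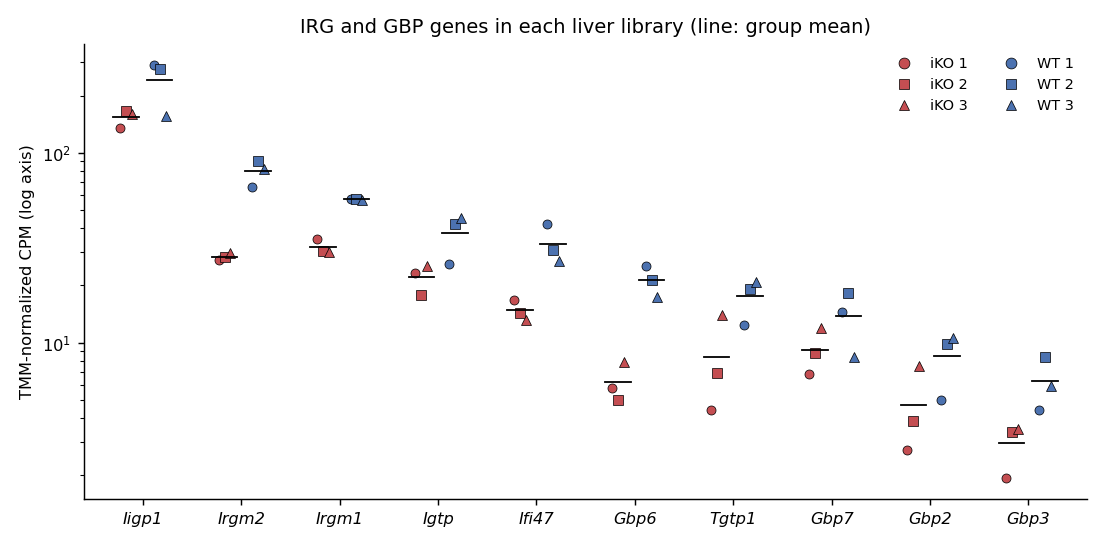
TMM-scaled CPM (log axis) of each member in the 3 iKO and the 3 WT libraries, each point a library and each short line the group mean. All iKO points lie under all WT points for Irgm1, Irgm2, Igtp, Ifi47, Gbp3 and Gbp6, and the groups overlap for Iigp1, Tgtp1, Gbp2 and Gbp7.

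All 3 regulators were lower in each iKO liver than in each WT liver. Irgm1, which in mouse restrains the effector IRGs and serves in mitochondrial and lysosomal upkeep, was at 35.3, 30.5 and 30.0 CPM in iKO livers 1, 2 and 3 and at 56.9, 57.3 and 56.3 CPM in WT livers 1, 2 and 3. The groups did not overlap, and the WT livers were almost equal to one another. Its iKO mean was 31.9 ± 2.92 CPM and its WT mean 56.8 ± 0.537 CPM (SD, n = 3 each). The log2 fold change was -0.83 (SE 0.14), also with the Y-linked term. Irgm2, the regulator found on the Golgi, was at 27.1, 28.4 and 29.7 CPM in iKO livers and at 66.0, 90.6 and 82.5 CPM in WT livers. All iKO livers were close together and far under the lowest WT liver, WT 1. By the fitted fold change the iKO level was 35.6% of the WT level, with a log2 fold change of -1.49 (SE 0.17), or -1.22 with the Y-linked term. Igtp (Irgm3), which marks the endoplasmic reticulum and lipid droplets, was at 23.2, 17.9 and 25.5 CPM in iKO livers and at 26.0, 41.9 and 45.1 CPM in WT livers. The groups stayed apart only narrowly, since WT 1 lay just above iKO 3. The log2 fold change was -0.77 (SE 0.23), ran from -0.97 to -0.60 when single libraries were left out, and was -0.23 with the Y-linked term.

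Among the IRG effectors, Ifi47 had the lowest log2 fold change and no overlap between the groups, while Iigp1 and Tgtp1 overlapped. Ifi47 (Irgd) was at 16.9, 14.4 and 13.2 CPM in iKO livers and at 41.9, 30.8 and 27.0 CPM in WT livers. Its highest iKO liver, iKO 1, lay well under its lowest WT liver, WT 3. The log2 fold change was -1.17 (SE 0.20), and -1.50 with the Y-linked term. Iigp1 (Irga6), the best studied effector on the Toxoplasma vacuole, was at 135, 167 and 161 CPM in iKO livers and at 291, 275 and 155 CPM in WT livers. WT 3 fell among the iKO livers, so the groups overlapped, while WT 1 and WT 2 lay far above them. The log2 fold change was -0.64 (SE 0.25), and -0.91 with the Y-linked term. Tgtp1 (Irgb6), an early effector on the same vacuole, was at 4.40, 6.92 and 13.95 CPM in iKO livers and at 12.4, 19.2 and 20.97 CPM in WT livers. The overlap came from iKO 3, which lay above WT 1. Its iKO livers differed by 3.17 times among themselves, the widest spread of any member in that group, and its log2 fold change was -1.05 (SE 0.41). That value was -1.60 without iKO 3, -0.75 without iKO 1 and -0.55 with the Y-linked term.

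The GBP members held both the lowest and the highest log2 fold change of the 10. Gbp6 was at 5.80, 4.99 and 7.94 CPM in iKO livers and at 25.3, 21.3 and 17.4 CPM in WT livers. The groups lay far apart, and by the fitted fold change the iKO level was 29.4% of the WT level, the lowest such share of the 10 members. The log2 fold change was -1.77 (SE 0.22), and -2.02 with the Y-linked term. Gbp3 was at 1.93, 3.38 and 3.53 CPM in iKO livers and at 4.41, 8.44 and 5.90 CPM in WT livers. No iKO liver reached the lowest WT liver, WT 1, and the log2 fold change was -1.08 (SE 0.33), or -0.57 with the Y-linked term. Gbp2, which carries a lipid-anchor signal at its end and is recruited early to vacuoles in mouse cells, was at 2.73, 3.86 and 7.57 CPM in iKO livers and at 4.99, 9.81 and 10.6 CPM in WT livers. iKO 3 lay above WT 1, so the groups overlapped, with a log2 fold change of -0.83 (SE 0.41). Adding the Y-linked term brought it to -0.07, the nearest to 0 of any member. Gbp7, which in mouse also acts in the assembly of the phagocyte oxidase, was at 6.79, 8.79 and 11.9 CPM in iKO livers and at 14.4, 18.3 and 8.41 CPM in WT livers. WT 3 was lower than both iKO 2 and iKO 3, and the log2 fold change of -0.58 (SE 0.30) was the nearest to 0 of the 10. It was -0.29 without WT 2, -0.84 without WT 3 and -0.65 with the Y-linked term, where Gbp2 and Igtp lay nearer to 0.

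**Figure D3:**
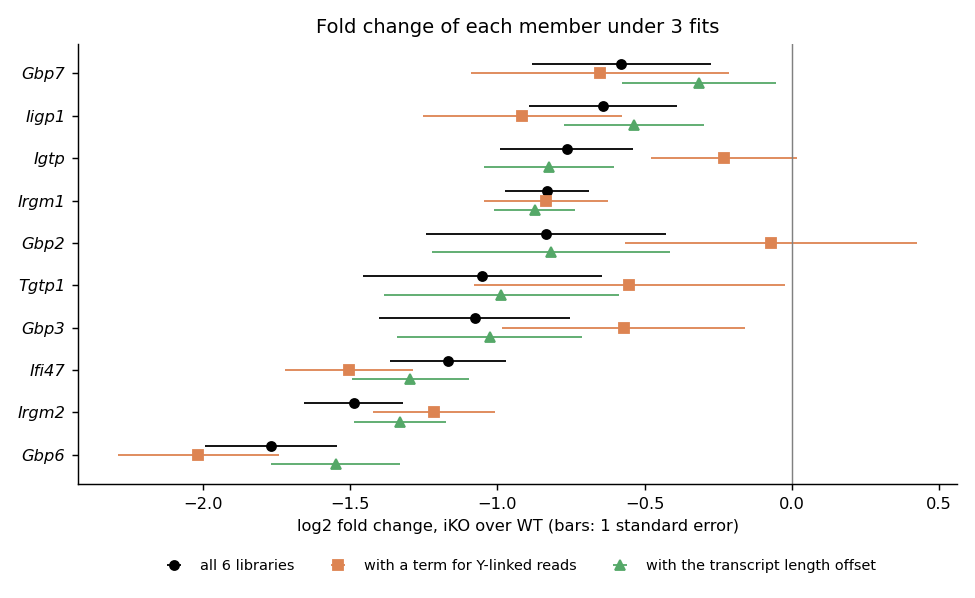
Log2 fold change of each member, iKO over WT, with its standard error from the edgeR fit, and the values with a Y-linked term and with a transcript length offset beside it. All points lie below 0, between -1.77 (Gbp6) and -0.58 (Gbp7) in the first fit, and Gbp2 moves to -0.07 with the Y-linked term.

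The size of the differences moved with the processing more for some members than for others. Over the 20 alternatives tried, the log2 fold change ran from -1.02 to -0.76 for Irgm1, from -1.65 to -1.08 for Irgm2, from -1.64 to -0.96 for Ifi47 and from -2.02 to -1.40 for Gbp6. It ran from -0.97 to -0.22 for Igtp on its own counts and from -1.33 to -0.07 for Gbp2, the widest ranges together with Tgtp1 (-1.60 to -0.50). The fit that summed the counts of Igtp and Irgm2 gave -1.22 for both. All 10 members stayed below 0 in each of the 20. With the Y-linked term, 3 of 10 members were past the threshold (Gbp6, Ifi47 and Irgm2), beside 0.805% of all genes called lower in that fit. Without WT 2, 3 of 10 members were past it, beside 1.98% of all genes called lower. As above, nothing is read from these shares.

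The livers of a group were not all alike in these genes. Among the iKO livers, iKO 1 was the lowest for 6 of 10 members and iKO 3 the highest for 7. Among the WT livers, WT 2 was the lowest for none of the 10 members, and WT 1 and WT 3 were the lowest for 5 each. By the annotation, 5 members lie on chromosome 11, 3 on chromosome 3, and 1 each on chromosomes 5 (Gbp6) and 18 (Iigp1). Over members and other tested family genes together, WT 1 was the lowest WT liver for 7 of 9 genes on chromosome 11 and 2 of 5 on chromosome 3. WT 3 was the lowest for 4 of 4 on chromosome 18, 5 of 5 on chromosome 5 and 3 of 5 on chromosome 3. This pattern was seen in the values and was not tested.

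Per transcript length, Iigp1 dominated the family. It stood at 77.8 ± 23.4 TPM in iKO livers and 146 ± 50.4 TPM in WT livers (SD, n = 3 each), and made up between 31.6% and 53.0% of the summed TPM of the members in any library. By mean TPM over the 6 libraries Irgm1, Irgm2, Igtp and Ifi47 followed, then Tgtp1, Gbp6, Gbp2, Gbp7 and Gbp3. The means of the iKO livers alone ran in another order, with Igtp (16.8 TPM) and Ifi47 (12.98 TPM) above Irgm2 (12.4 TPM), and Gbp2 (3.11 TPM) and Gbp7 (2.57 TPM) above Gbp6 (2.197 TPM). Irgm1 was at 22.9 ± 3.00 TPM in iKO livers and 51.1 ± 7.49 TPM in WT livers, and Gbp3 at 1.72 ± 0.812 TPM in iKO livers and 4.51 ± 2.09 TPM in WT livers. In the order over both groups, only the steps below Iigp1 and below Ifi47 were free of overlap between neighbours in both groups. The step from Irgm1 to Irgm2 was free of overlap in iKO livers alone. Summed over the 10 members, the level was 110, 172 and 190 TPM in iKO livers and 318, 440.5 and 292 TPM in WT livers, with no overlap.

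Near-identical copies limit how far a level belongs to a single gene. Over windows of 100 bases in the annotated transcript, 83.3% of all Tgtp1 windows occurred in another gene, and 80% of all its windows occurred in Tgtp2. For Gbp6 the share was 82.9%, with 44.2% in Gbp10 and 82.9% in the predicted gene Gm43302. Gbp7 shared 10.2%, Igtp 5.67% (with Irgm2), Irgm2 2.48%, Gbp3 0.929% and Ifi47 0.836%, while Irgm1, Iigp1 and Gbp2 shared none. Counts of family genes that shared any such window, however few, were summed before the fit, so not all genes summed are close copies. The log2 fold changes were -1.02 (SE 0.35) for Tgtp1 with Tgtp2, -1.22 (SE 0.19) for Irgm2 with Igtp and -0.72 (SE 0.27) for Gbp3 with Gbp7. Gbp6 summed with Gbp4, Gbp8, Gbp9 and Gbp10 was at 14.7, 21.01 and 26.2 CPM in iKO livers and at 59.5, 60.8 and 43.6 CPM in WT livers, a log2 fold change of -1.40 (SE 0.23). The summed groups of Gbp6 and Irgm2 did not overlap between iKO and WT livers, and those of Tgtp1 and Gbp3 did.

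In the rest of the family 4 genes passed the test, all lower in iKO livers, and Gbp10 was furthest down. Of 18 other genes listed, 17 were in the table and 15 passed the filter. They are IRG and GBP genes and Gvin1, a very large GTPase of 2427 residues counted with them here. All 15 had log2 fold changes below 0, with a median of -0.92. At an adjusted p under 0.05 (edgeR), 4 of 15 fell and 0 rose, beside 8.07% and 7.31% of all genes. This list, like the members, was chosen with earlier results of these data known, so nothing is read from these shares. The 4 became 2 without WT 2, iKO 2 or iKO 3, beside 1.98%, 5.3% and 3.46% of all genes called lower. They became 1 (Gbp10) with the Y-linked term, beside 0.805% of all genes. With that term the log2 fold changes of the other 3 were -1.89 (Gm4841), -0.998 (Gm12250) and -1.09 (Gbp5). Gbp10, a close copy of Gbp6, was at 1.199, 1.45 and 1.45 CPM in iKO livers and at 13.6, 14.2 and 8.46 CPM in WT livers. Its groups lay further apart than those of any member. Gbp10 fell by 3.14 on the log2 scale (SE 0.28, adjusted p = 0.000356) and was called in all 20 alternatives at adjusted p up to 0.00793. In 1 of the 20 the test was of its sum with Gbp4, Gbp6, Gbp8 and Gbp9. Since 56.1% of the 100-base windows of Gbp10 occurred in Gbp6, reads may have been divided between them. Gbp10 is therefore not independent of the members. Gm4841, a predicted IRG gene on chromosome 18, was at 1.13, 2.14 and 2.28 CPM in iKO livers and at 6.96, 8.17 and 5.03 CPM in WT livers. It fell by 1.84 on the log2 scale (SE 0.32, adjusted p = 0.0083) and was called in 17 of 20 alternatives (adjusted p up to 0.0804). Gm12250 (Irgb10), which attacks bacterial membranes, fell by 1.53 (SE 0.35, adjusted p = 0.0219), and was called in 12 of 20 alternatives (adjusted p up to 0.495). Gbp5, which is tied to inflammasome assembly, fell by 1.16 (SE 0.33, adjusted p = 0.0439), a call lost in all 6 fits that left out a library (adjusted p up to 0.421 over the 20 alternatives).

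The other 11 tested family genes did not pass the test. Gbp9 (-0.92, adjusted p = 0.0538), Gbp4 (-0.89, adjusted p = 0.0521), Gbp2b (-1.16, adjusted p = 0.0526) and Tgtp2 (-0.92, adjusted p = 0.126) had each iKO liver under each WT liver. So had Irgq, an IRG relative without known interferon control, at -0.37 (adjusted p = 0.135). The predicted gene 9930111J21Rik1 was near the counting limit, at 0.400, 0 and 0.207 CPM in iKO livers and 0.637, 3.55 and 0.822 CPM in WT livers (adjusted p = 0.0651), with WT 2 far above the rest. Of its 100-base windows, 63% occurred in 9930111J21Rik2, so reads may have been divided between them. Summed with 9930111J21Rik2 and Gm5431, the level was 1.13, 1.77 and 2.44 CPM in iKO livers and 2.60, 5.55 and 3.48 CPM in WT livers. The log2 fold change of that sum was -1.11 (SE 0.38). Gm4951 (-0.75), F830016B08Rik (-0.37), Gbp8 (-0.27), Gm5431 (-0.18) and Gvin1 (-0.08) overlapped between the groups. The sign of Gvin1, Gm5431 and Gbp8 turned in at least 1 alternative, so their direction is not settled here. Of the Gvin1 windows 97.8% occurred in another gene, so its level may not belong to it alone. Irgc1, a testis gene, had 0 counts in all libraries.

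**Figure D4:**
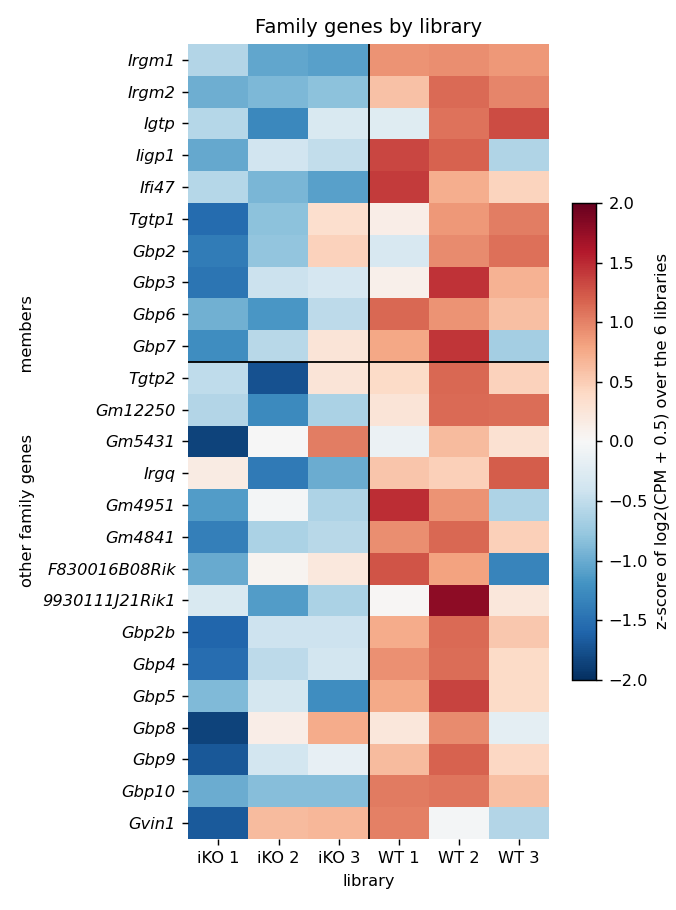
Level of each member and each other tested family gene in each library, as a z-score of log2(CPM + 0.5) over the 6 libraries (colour scale, iKO columns left of WT columns). All iKO columns lie under all WT columns for 6 of 10 members and 10 of 15 other family genes, beside 19.2% of all genes tested. Gvin1, Gm5431 and Gbp8 are among those that overlap.

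The pathway that drives these genes was examined with lists of genes other than the members. These lists too were chosen with earlier results of these data known. Of the interferon gamma signalling list (22 genes, 19 tested), 2 fell and 2 rose, beside 8.07% and 7.31% of all genes, with a median log2 fold change of -0.13. The 2 that fell became 1 without WT 2 and 0 with the Y-linked term, beside 1.98% and 0.805% of all genes called lower. Irf1, a transcription factor that acts on ISRE sites, was at 16.5, 23.5 and 25.9 CPM in iKO livers and at 42.7, 45.6 and 49.6 CPM in WT livers. All iKO livers lay well under all WT livers, and Irf1 fell by 1.06 on the log2 scale (SE 0.19, adjusted p = 0.00827, called in 17 of 20 alternatives, adjusted p up to 0.169). The 2 genes that rose were Il12rb1, a receptor chain for interleukins 12 and 23 (2.70, SE 0.29, adjusted p = 0.000846), and Socs3, a feedback inhibitor of cytokine receptors (2.06, SE 0.51, adjusted p = 0.0444). Il12rb1 was called in all 20 alternatives (adjusted p up to 0.0351), and Socs3 in 7 (adjusted p up to 0.542).

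Ligand, receptors and kinases of the pathway did not pass the test. Ifng, the ligand, had 2, 1 and 0 counts in iKO libraries and 0, 1 and 2 counts in WT libraries, too few to compare. The receptor chains were at log2 fold changes of -0.15 (SE 0.22, adjusted p = 0.658) for Ifngr1 and 0.01 (SE 0.16, adjusted p = 0.984) for Ifngr2, and the sign of both turned in other fits. Jak1 was at -0.32 (SE 0.16, adjusted p = 0.196) and Jak2 at -0.73 (SE 0.23, adjusted p = 0.0602), each with all iKO livers under all WT livers. Irf8, a factor of macrophages and dendritic cells, was at -0.40 (SE 0.22, adjusted p = 0.227).

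Among other genes that answer to the same cytokine, 3 passed the test. Of 28 such interferon gamma targets listed, 24 were tested, 3 fell and 0 rose, beside 8.07% and 7.31% of all genes, with a median of 0.00 and 12 of 24 below 0. The 3 became 5 without WT 1 (8.14% of all genes called lower in that fit) and 1 without WT 3 (3.68%) or iKO 3 (3.46%). They became 0 without WT 2 (1.98%), without iKO 2 (5.3%) or with the Y-linked term (0.805%). Those that fell were the chemokine Cxcl9 (-0.997, SE 0.28, adjusted p = 0.0451), the checkpoint ligand Cd274 (-1.41, SE 0.31, adjusted p = 0.0181) and the peptide transporter Tap1 (-0.75, SE 0.18, adjusted p = 0.0278). These were called in 7, 14 and 12 of 20 alternatives, with adjusted p up to 0.637, 0.395 and 0.402. With the Y-linked term their log2 fold changes were -0.44 (Cxcl9), -1.04 (Cd274) and -0.63 (Tap1). The class II genes H2-Aa (-0.05), H2-Ab1 (-0.17) and H2-Eb1 (0.01) and the immunoproteasome genes Psmb8 (0.35) and Psmb9 (-0.01) did not pass the test. Of 33 genes of the type I interferon response listed, 31 were tested, 7 fell and 1 rose, beside the same shares of all genes, with a median of -0.48. The 7 became 4 without WT 2, beside 1.98% of all genes called lower. They became 1 (Cmpk2) with the Y-linked term, beside 0.805% of all genes. In that fit the log2 fold changes of the other 6 were -1.43 (Ifit1), -1.22 (Ifit3), -0.58 (Ddx58), -1.07 (Oasl1), -1.50 (Rsad2) and -0.83 (Herc6). Cmpk2, a mitochondrial nucleotide kinase, was at 1.73, 1.72 and 2.13 CPM in iKO livers and at 8.02, 7.95 and 6.62 CPM in WT livers. Its groups lay far apart, and Cmpk2 fell by 2.01 on the log2 scale (SE 0.24, adjusted p = 0.0017, called in 20 of 20 alternatives, adjusted p up to 0.0255). Ifit3 (-1.65, SE 0.22, adjusted p = 0.00273), Oasl1 (-1.37, SE 0.20, adjusted p = 0.00332), Rsad2 (-1.51, SE 0.24, adjusted p = 0.00512), Ifit1 (-1.48, SE 0.30, adjusted p = 0.0143), Ddx58 (-0.87, SE 0.18, adjusted p = 0.0145) and Herc6 (-0.81, SE 0.22, adjusted p = 0.04) also fell. Ifitm3, a membrane protein that hinders virus entry, rose (0.92, SE 0.25, adjusted p = 0.0393). Ifitm3 and Herc6 kept their calls in 9 of 20 alternatives each.

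Of 20 listed genes that work with the GTPases, 19 were tested, 1 fell and 2 rose, again beside 8.07% and 7.31% of all genes, with a median of 0.18. The 1 became 2 without WT 1, beside 8.14% of all genes called lower. It became 0 without WT 2 or with the Y-linked term, beside 1.98% and 0.805% of all genes. The autophagy conjugation machinery, which guides IRG and GBP proteins to vacuoles, held both genes that rose, Map1lc3b (0.95, SE 0.21, adjusted p = 0.0189) and Atg16l1 (0.65, SE 0.16, adjusted p = 0.0294). Atg5 (-0.38, adjusted p = 0.104), Atg7 (0.25, adjusted p = 0.434) and Gabarapl2 (0.37, adjusted p = 0.215) did not pass the test. Trim21, a ubiquitin ligase found at vacuoles with GBPs, fell by 1.10 (SE 0.21, adjusted p = 0.0117). Calls were kept in 15 (Map1lc3b), 10 (Atg16l1) and 16 (Trim21) of 20 alternatives.

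**Figure D5:**
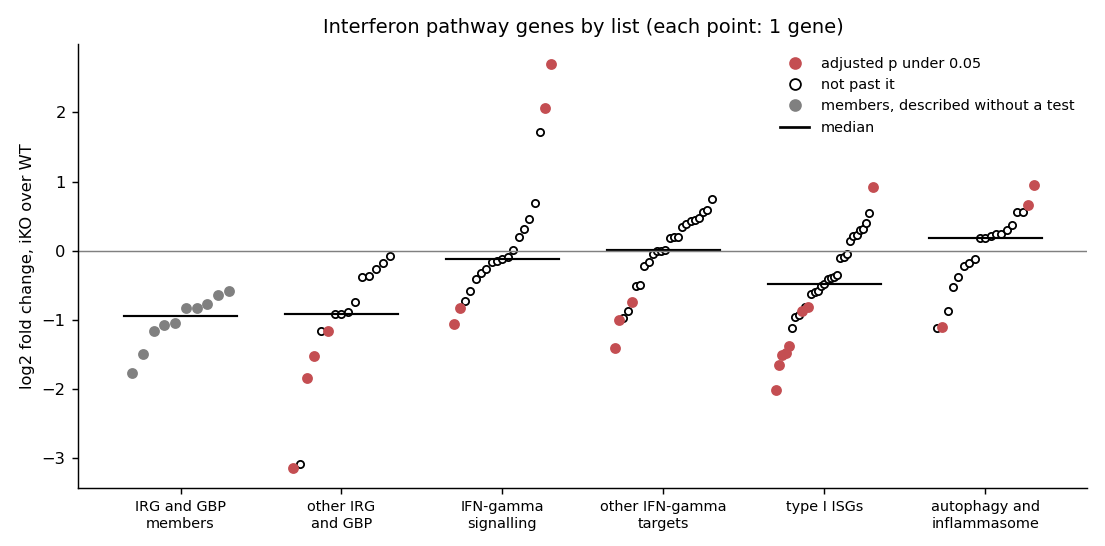
Log2 fold change, iKO over WT, of each tested gene in the lists, 1 column per list, with filled points for adjusted p under 0.05 and grey points for the members, which are described without a test. The members lie wholly below 0 (median -0.94), as do the other family genes (median -0.92), while the other interferon gamma targets scatter around 0 (median 0.00).

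The genes most like the members over the 6 libraries were sought by correlation with the members' mean standardised level, among the 12203 genes that averaged 1 CPM or more. The closest were Pde1a, a cyclic nucleotide phosphodiesterase (r = 0.996), Cd274 (r = 0.990) and the histone methyltransferase Setdb1 (r = 0.990), followed by Dph6, Hus1, Traf3ip2, Lipe, Fbxo32, Neurl1b and Pcnx4 (r of at least 0.987). All points share the same 6 libraries and the same contrast, so these values describe likeness in order only. The likeness of a member to the mean of the other 9 ran from 0.695 (Gbp7) and 0.699 (Iigp1) to 0.942 (Gbp6) and 0.958 (Irgm2).

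Some markers of other liver cell types were also called lower in iKO livers, in lists chosen with earlier results of these data known. Over all genes, 8.07% were called lower and 7.31% higher. Of 18 Kupffer cell and macrophage markers, 7 fell and 0 rose, with a summed level of 494 to 590 CPM in iKO livers and 609 to 1093 CPM in WT livers. Of 14 endothelial markers, 5 fell and 0 rose (121 to 260 CPM in iKO livers, 308 to 488 CPM in WT livers), and of 12 stellate cell markers, 8 fell and 0 rose (249 to 320 CPM in iKO livers, 494 to 862 CPM in WT livers). Of 10 tested T and NK cell markers, 0 fell and 0 rose (7.67 to 11.8 CPM in iKO livers, 8.52 to 13.4 CPM in WT livers), and of 11 hepatocyte markers, 0 fell and 2 rose. Of 10 neutrophil markers 5 fell (23.4 to 51.5 CPM in iKO livers, 35.3 to 133 CPM in WT livers), of 6 dendritic cell markers 1, of 4 tested B cell markers 1 and of 6 cholangiocyte markers 0, with none of these higher. Called lower with the Y-linked term were 0 macrophage, 0 endothelial, 3 stellate and 1 neutrophil markers, beside 0.805% of all genes in that fit. Without WT 2 these counts were 1, 0, 5 and 4, beside 1.98% of all genes. The single B cell and dendritic cell calls were lost in both fits. No tested marker of these lists was at 0 in all libraries. WT 1 had the lowest macrophage sum of the WT livers (609 CPM). Its summed member level without Iigp1, 165 TPM, was also the lowest of the WT livers, beside 248 TPM in WT 2 and 200 TPM in WT 3. With Iigp1 included the order changed, and WT 3 was the lowest at 292 TPM, beside 318 TPM in WT 1 and 440.5 TPM in WT 2. With the Y-linked term the median log2 fold change was -0.02 for the macrophage list (-0.73 without it), -0.43 for the endothelial list (-0.93 without it) and -0.90 for the stellate list (-1.47 without it), beside -0.74 for the members (-0.94 without it). The part of these cell types in the members' levels was not tested.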

How the data were processed

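RNA of 3 iKO and 3 WT livers was sequenced, per the labels. The authors deposited 1 table with expected counts, FPKM and TPM per gene and library. The submitters' processing notes list RSEM 1.2.12, HISAT2 2.0.4 and Bowtie2 2.2.5 and the build mm9. Annotation and strand setting are not given in the sources used here. Expected counts, as the authors deposited them, need not be whole, since RSEM divides reads between similar genes, so levels of near-identical copies are uncertain. In the deposited table, FPKM corrects for depth and length, and TPM also sets each library to a common total.

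Expected counts were rounded and tested with edgeR 4.0.16 in R 4.3.3 (filterByExpr, TMM, robust quasi-likelihood test, Benjamini-Hochberg adjustment over 13160 genes, threshold 0.05), and the fit was tested on simulated data. Each SE was derived from the fold change and its F statistic. The TMM factors ran from 0.780 (iKO 1) to 1.18 (WT 2). At 18139500 to 19912000 counts per library, 3 counts correspond to 0.133 to 0.200 CPM; such limits cover counting error only. Alternatives used limma 3.58.1, DESeq2 1.42.0, other scaling and filters, a term for libraries with Y-linked reads (Ddx3y and Kdm5d), a length offset, summed copies and each library left out. No 2 libraries agreed within sampling noise. Groups came from the labels' genotype.

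The members and the gene lists were chosen with earlier results of these data known. Named genes are all members, all tested family genes, all called genes of the 4 pathway lists with set members of the signalling list, the 10 genes most like the members, and Nek7; the targets and partners named besides, the class II, proteasome and autophagy genes that did not pass, were chosen after their values were seen. Loop sequences came from GENCODE M21 and promoters from RefSeq, and no sequence from chromosome 18 is printed. Of the signalling list, 1 called gene is counted but not reported here.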

Additional observations from a re-analysis of the deposited data

How the results depend on the processing

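Counts of list genes here are of those called lower in iKO livers. The number of genes called was 2024, with 5 of 10 members, 4 other family genes, 2 signalling genes, 3 other targets, 7 type I genes and 1 partner called lower. A Y-linked term left 184 genes, 3 members, 1 other family gene, 0 signalling genes, 0 targets, 1 type I gene and 0 partners. The 4 libraries with Y-linked reads alone left 143, 3, 1, 0, 0, 1 and 0 in that order, and the term with a length offset 164, 3, 1, 0, 0, 2 and 0. These fits rest on WT 1 for the WT side. DESeq2 (9.4% lower) called 8 other family genes, 5 targets and 2 partners. Limma on log2(FPKM + 1) (7.07% lower) and on log2(FPKM + 0.1) (7.04% lower) called 3 partners each. Without a filter, limma on log2(FPKM + 1) called 794 genes (3.19% lower), 2 other family genes and 1 target. A length offset alone (5.52% lower) left 1 signalling gene and 1 target and turned Nek7 to 0.019. Summed copies (8.09% lower) gave 7 other family genes, of which Gbp4, Gbp8, Gbp9 and Gbp10 carry 1 shared test of their sum with Gbp6.

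Leaving out each library in turn gave 491 (without WT 2) to 1840 genes. Called lower were 1.98% (without WT 2) to 8.14% (without WT 1) of all genes. Among the lists, 3 (without WT 2) to 6 members, 2 to 4 other family genes, 1 to 3 signalling genes and 0 to 5 targets were called lower. So were 4 to 8 type I genes and 0 to 2 partners, and the Nek7 value was -0.46 to -0.01. In the same fits Gm5431 ran from -0.55 to 0.13, Gbp8 from -0.56 to 0.049, Gvin1 from -0.44 to 0.72, Ifngr1 from -0.32 to 0.050 and Ifngr2 from -0.044 to 0.13.

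The correlations of deviations were 0.20, 0.24 and 0.039 between livers of the same replicate number. They ran from -0.46 to 0.36 between livers of different number, so whether the numbers pair the livers cannot be told. A replicate block gave 1710 genes (7.13% of all genes called lower), 6 members and 2 partners.

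Of the genes without a call, Ifngr2 turned to -0.050 with upper-quartile factors, -0.16 with log2(FPKM + 1) with or without a filter, -0.17 with log2(FPKM + 0.1) and -0.035 with a length offset. Gm5431 turned to 0.035, 0.031 and 0.10 and Ifngr1 to 0.11, 0.11 and 0.054 under the Y-linked term, the libraries with Y-linked reads alone, and the term with a length offset; Irf8 turned to 0.047 under the last, and Gvin1 to 0.15 with a length offset. The causes were not tested. With 3 livers a group and counts near 1 CPM for several GBP genes, small differences are beyond this depth.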
